A study of Mus musculus with 16 samples.

Results

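The genes described here were 10 members of the gp130, JAK-STAT and SOCS signalling pathway, of 46078 genes in the count table: the receptor subunit Il6st, the kinases Jak1 and Jak2, the transcription factors Stat3, Stat5a and Stat5b, the inhibitors Socs1, Socs2 and Socs3, and the kinase gene Pim1. They were chosen by name, as a pathway of cytokine signalling, and all 10 matched a row of the table through the GENCODE M21 annotation of GRCm38. RNA-Seq was run on haematopoietic stem cells (HSCs), sorted in pools of 30 as viable Lin- Sca1+ cKit+ (LSK) CD48- CD150+ cells from untreated C57/Bl6 mice. The comparison groups were endosteal BM (the bone fraction of tibia, femur and humerus) and central BM (the marrow fraction), each from WT mice and from mice without Gfra2 (Gfra2-/-), the receptor of the neurotrophic factor neurturin. Loss of the gene was in the whole animal, so a difference between the genotypes covers the HSCs and everything around them. After matching of columns to groups, 15 libraries were used: 4 endosteal WT, 4 central WT, 4 endosteal Gfra2-/- and 3 central Gfra2-/-. Libraries of a group are lettered A to D in the order of the table, whose columns carry no replicate numbers.

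The product of Il6st, gp130, is the signalling subunit shared by the receptors of IL-6, IL-11, LIF and oncostatin M. When a cytokine brings receptor chains together, Janus kinases bound to them phosphorylate the receptor and the STAT proteins, which dimerise, enter the nucleus and activate genes. SOCS genes are among those switched on, and their proteins shut the same receptors and kinases down, and Pim1, a serine/threonine kinase that favours survival, is another well-known STAT target. In HSCs, Jak2, Stat5a and Stat5b carry signals of haematopoietic cytokines, while gp130 signalling through Stat3 is tied to maintenance and self-renewal.

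STAT dimers bind palindromes of the form TTCNNNGAA, and this motif reads the same on both strands. A promoter (250 bases before to 50 after the transcript start, RefSeq, GRCm38.p6) was at hand for 9 of the 10 genes, all except Socs2. The motif was found once, in the promoter of Socs3, and the others (Il6st, Jak1, Jak2, Stat3, Stat5a, Stat5b, Socs1 and Pim1) had no match in this window. Of 27025 genes with a promoter, 9.55% held it in at least 1, and of all 32851 promoters 8.30% did. The Socs3 match starts 154 bases before the RefSeq start, at chr11:117969502-117969530 on the minus strand with its flanks, inside an intron of a processed Socs3 transcript in GENCODE M21. It is shown because Socs3 was the member with the most uneven level across libraries, and the capitals mark the motif:
Socs3: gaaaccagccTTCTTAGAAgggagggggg
A match of letters is a description of the sequence and does not show that a STAT protein binds there.

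For Gfra2 itself, endosteal WT libraries held 0, 0, 0 and 1 counts and central WT libraries 0, 0, 4 and 0, in the order A to D. Endosteal Gfra2-/- libraries held 2, 47, 1 and 9 counts, and the central ones 0, 1 and 0. WT HSCs held too few counts to show its loss, and endosteal libraries B and D went against their label, so these groups are called libraries labelled Gfra2-/-. Reads counted on genes numbered 4416648 to 14003634 in endosteal WT, 826487 to 3367289 in central WT, 8519094 to 18550008 in endosteal Gfra2-/- and 7649803 to 14716308 in central Gfra2-/- libraries. Central WT libraries A and C had fewer than 1500000 reads on genes, a number that the study set as a minimum for uniquely mapped reads, which also include reads off genes. The sort was checked against its markers: the HSC genes Kit, Ly6a, Slamf1, Procr, Mecom, Hlf and Fgd5 were detected in every group. Kit had 491 to 993 CPM and Hlf 292 to 624 CPM, while Cd48 reached at most 17.4 CPM. Slamf1, the gene of CD150, ranged from 6.34 CPM (7 counts, central WT) to 134 CPM (endosteal WT). In endosteal libraries labelled Gfra2-/-, the 6 lymphoid markers summed to at most 1147 CPM (median 2.59). The 6 erythroid markers summed to at most 581 CPM there (median 114). CPM are read counts scaled to the TMM-normalised total of each library. The share of reads on spike-in RNAs was under 0.5% in 1 library of each group (D, or C in central Gfra2-/-) and above it in the others, and differences are also given within each of these sets.

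Ranked by the median over the 15 libraries of CPM per kb of exon, which allows genes of different length to be compared, Jak1 stood first at 57.8 CPM per kb. Stat3 (27.0), Stat5a (20.0), Stat5b (18.2), Jak2 (12.4) and Pim1 (11.7 CPM per kb) followed, and Socs2 (8.02), Il6st (5.53) and Socs1 (3.87 CPM per kb) were lower. Socs3 had a median of 0. Jak1 exceeded Stat3 in 15 of 15 libraries, Pim1 exceeded Socs2 in 12 and Socs1 exceeded Socs3 in 13. Other neighbours were less separate: Stat3 exceeded Stat5a in 9 libraries, Stat5a exceeded Stat5b in 7, Stat5b exceeded Jak2 in 11, Jak2 exceeded Pim1 in 10, Socs2 exceeded Il6st in 10 and Il6st exceeded Socs1 in 11, so their order did not hold across libraries. HSCs thus carried the mRNAs of a shared receptor subunit, both kinases and all 3 STATs in every library. The spread within groups was smallest for Stat3 (pooled SD 0.383 on the log2(CPM + 1) scale) and large for Il6st (0.959) and Socs3 (1.79).

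**Figure D1:**
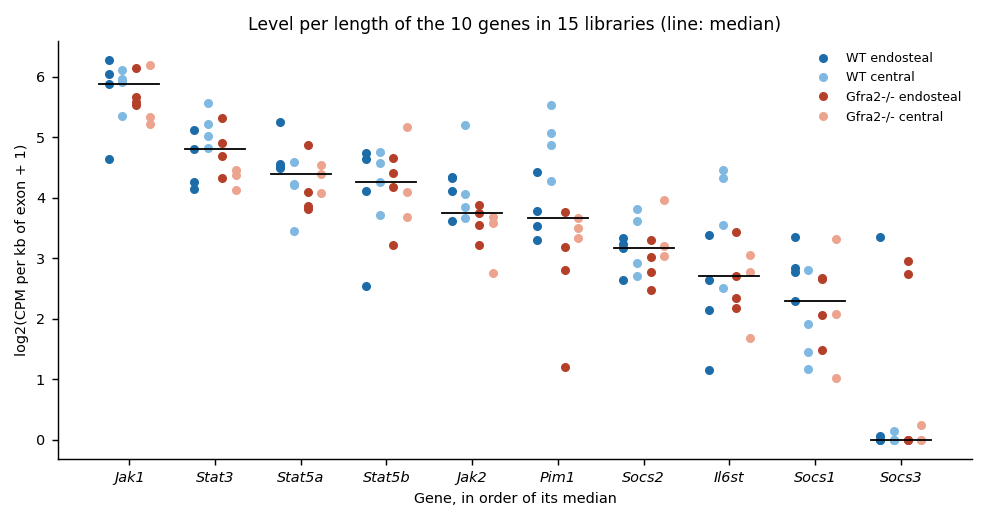
Level of the 10 genes per length of exon, as log2(CPM per kb + 1), with a point for each of 15 libraries coloured by group and a line at the median. Jak1 sits highest at a median of 57.8 CPM per kb, neighbouring genes overlap, and Socs3 lies at or near 0 except in 3 endosteal libraries.

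Differences between groups were assessed on counts by the quasi-likelihood test of edgeR, for all genes that passed the filter on low counts, with Benjamini-Hochberg adjustment over all of them and an FDR of 0.1. No member passed this threshold in any of the 7 comparisons. In endosteal against central WT HSCs 0 of 9 tested members passed, and 0% of all tested genes did. The shares of all genes called were also 0% for endosteal against central libraries labelled Gfra2-/- and 0% for the genotypes in endosteal HSCs, and 0.051% for the genotypes in central HSCs, where 0 of 9 members passed as well. Over all 15 libraries, where 10 members were tested, 0 passed for the interaction of genotype and compartment (0% of all genes), 0 for the compartments (0.0259%) and 0 for the genotypes (0.804%). Unadjusted p-values and overlaps are given below as descriptions, beside the share of all genes that reached the same mark. Since each library came from a pool of cells and the labels do not tie pools to animals, p-values measure the spread between these libraries, which may be technical in part. In bulk libraries of this kind, fewer cells expressing a gene and less RNA per cell cannot be told apart.

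In the receptor group, Il6st (ENSMUSG00000021756, chromosome 13, 112464070 to 112510086), placed like the genes below on GRCm38, differed most where central WT libraries were involved. Endosteal WT libraries A to D had 38.0, 105, 57.9 and 13.7 CPM, and central WT libraries A to D had 234, 51.6, 211 and 119 CPM. In libraries labelled Gfra2-/- it had 109, 61.4, 39.2 and 45.2 CPM in endosteal and 24.4, 80.8 and 64.9 in central HSCs. Central WT libraries A, C and D were the highest of all 15, but central WT library B lay within the range of the other groups, so the groups overlapped. The log2 fold change in endosteal against central WT HSCs was -1.54 (standard error 0.65, unadjusted p = 0.0346, FDR = 0.594 from edgeR). In central HSCs labelled Gfra2-/- against WT it was -1.46 (standard error 0.64, unadjusted p = 0.0407, FDR = 0.545 from edgeR), with the central WT libraries shared by both comparisons. The highest values were those of the shallowest libraries: without central WT libraries A and C the fold changes were -0.68 and -0.63. In the remaining 2 comparisons Il6st differed by 0.16 between the compartments in libraries labelled Gfra2-/- and by 0.25 between the genotypes in endosteal HSCs, each with a standard error above 0.5. On the log2(CPM + 1) scale, the WT compartments differed by -1.14 in the libraries with more spike-in RNA and by -3.03 in the pair with little, and the central genotypes by -1.59 and -0.87.

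Of the kinases, Jak1 (ENSMUSG00000028530, chromosome 4, 101152367 to 101265282), which gp130 uses most directly, varied little between groups. Endosteal WT HSCs had a mean level of 404 ± 165 CPM (SD, n = 4), and central WT HSCs had 413 ± 87.4 CPM (SD, n = 4). The means of libraries labelled Gfra2-/- were 383 ± 80.9 CPM in endosteal HSCs (SD, n = 4) and 356 ± 145 CPM in central HSCs (SD, n = 3). Its log2 fold changes in the 4 comparisons of 2 groups lay between -0.25 and 0.11 with standard errors of 0.30 to 0.36. Changes of the size of these errors, and moderately larger ones, could therefore not be told from no change. The gene shares 4 exonic bases with Raver2 on the opposite strand.

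Jak2 (ENSMUSG00000024789, chromosome 19, 29251828 to 29313080), a kinase of haematopoietic cytokine receptors, had lower mean levels in libraries labelled Gfra2-/-. Libraries A to D had 56.8, 81.5, 96.8 and 96.0 CPM in endosteal WT and 78.8, 179.7, 67.0 and 58.6 in central WT HSCs. In libraries labelled Gfra2-/- it had 62.4, 68.9, 53.8 and 41.5 CPM in endosteal and 55.2, 59.6 and 28.8 in central HSCs. The genotypes overlapped in both compartments, and central WT library B alone lay far above the rest. Over both compartments the log2 fold change of Gfra2-/- against WT was -0.76 (standard error 0.33, unadjusted p = 0.0356, FDR = 0.370 from edgeR), and without central WT library B it was -0.54 (FDR = 0.538 from edgeR). Within the compartments it was -0.55 in endosteal and -1.03 in central HSCs.

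**Figure D2:**
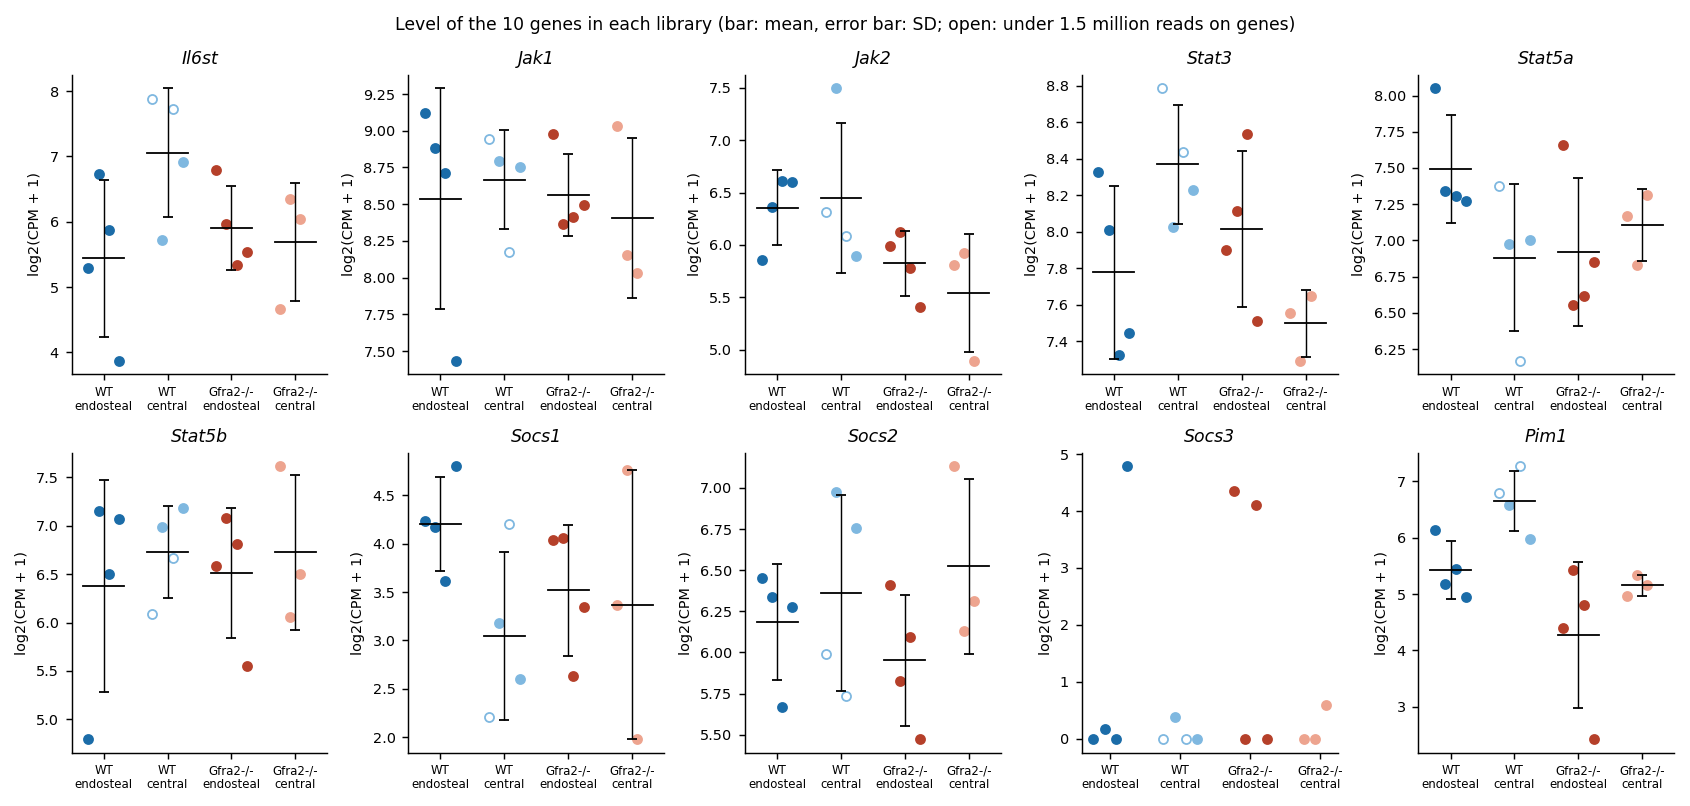
Level of each of the 10 genes, as log2(CPM + 1), with a point for each library by group, a bar for the mean and an error bar for the SD (neither is drawn for Socs3); open points mark the 2 central WT libraries under 1500000 reads on genes. Central WT libraries reach the highest levels of Il6st, Stat3 and Pim1, while Socs3 is near 0 in all but 3 libraries.

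Among the STATs, Stat3 (ENSMUSG00000004040, chromosome 11, 100885098 to 100939540), the main effector of gp130, was lower in every central library labelled Gfra2-/- than in every central WT library. The central WT libraries A to D had 441, 259, 346 and 299 CPM, and the central libraries labelled Gfra2-/- had 187, 156 and 199.6. Endosteal WT libraries had 320.4, 257, 159 and 173 CPM, and endosteal libraries labelled Gfra2-/- had 238, 276, 370.4 and 181. In central HSCs the groups did not overlap, with a log2 fold change of -0.92 (standard error 0.33, unadjusted p = 0.0179, FDR = 0.453 from edgeR). An exact two-sided permutation test of log2(CPM + 1) gave 0.0571 for Stat3, the smallest p that 4 libraries against 3 allow, so that this test could not reach 0.05. Within the spike-in sets Stat3 differed by -0.99 (more spike-in RNA) and -0.58 (little). The endosteal groups overlapped and differed by 0.23 the other way (standard error 0.31). The interaction of genotype and compartment was 1.12 (standard error 0.45, unadjusted p = 0.0225, FDR = 0.5996 from edgeR), which compares the genotype difference of endosteal with that of central HSCs and did not pass the threshold. Without endosteal libraries B and D labelled Gfra2-/-, which held the most Gfra2 counts, it was 1.26, and without the 2 shallowest libraries it was 0.86. In the latter setting the central difference was -0.67.

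Stat5a (ENSMUSG00000004043, chromosome 11, 100859351 to 100885169), which carries signals of haematopoietic cytokine receptors, had 264, 161, 158 and 154 CPM in the endosteal WT libraries and 165, 125, 71.1 and 127 in the central WT ones, from A to D. In libraries labelled Gfra2-/- the values were 201, 92.9, 97.1 and 115 CPM in endosteal and 143, 113 and 158 in central HSCs. Its log2 fold changes ran from -0.54 in endosteal HSCs of the 2 genotypes to 0.57 in WT endosteal against central HSCs, with no unadjusted p under 0.05. Stat5b (ENSMUSG00000020919, chromosome 11, 100780731 to 100850724), its close paralogue, ranged from 26.8 to 195 CPM over all libraries and its fold changes from -0.27 to 0.06. Reads that fit both copies could be lost or split between them, so the balance of these paralogues is uncertain. The 3 STAT genes lie side by side on chromosome 11, and Stat3 and Stat5a share 72 exonic bases at their converging ends, where counts made without strand cannot tell them apart.

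A ratio of counts within a library does not depend on how libraries are scaled to each other. All 36 pairs of the 9 members other than Socs3 were compared in this way after the levels had been seen. The ratio of Stat3 to Stat5a was 1.21, 1.59, 1.01 and 1.12 in the endosteal WT libraries and 2.67, 2.07, 4.83 and 2.35 in the central WT ones, from A to D. It was 1.18, 2.98, 3.81 and 1.58 in endosteal and 1.31, 1.38 and 1.26 in central libraries labelled Gfra2-/-. Central WT HSCs thus held more Stat3 per Stat5a than endosteal WT HSCs and than central HSCs labelled Gfra2-/- in every library, whereas endosteal libraries labelled Gfra2-/- spanned both ranges. The mean log2 ratio was 1.49 for central and 0.28 for endosteal WT HSCs (exact permutation p = 0.0286, 0.171 after adjustment over the 36 pairs), and 0.40 in central libraries labelled Gfra2-/- (exact permutation p = 0.0571 against WT, 0.514 after adjustment). Without the 2 shallowest libraries the WT compartments differed by -0.86 and the central genotypes by -0.74. No ratio passed 0.05 after adjustment in any of the 4 comparisons, in which the smallest adjusted exact permutation p was 0.171, 0.686, 0.554 and 0.514. Groups did not overlap for 6 of 36 pairs between the WT compartments and 3 between the compartments labelled Gfra2-/-. Between the genotypes it was 0 pairs in endosteal and 4 in central HSCs. The ratio of Stat5a to Pim1 also separated the WT compartments and the central genotypes, by 1.86 and 1.75 on the log2 scale. The 36 ratios share 9 genes and are not independent of each other. No share over pairs of other genes was at hand, so these counts of pairs cannot be judged against a background. For single genes, groups did not overlap in 6.36%, 7.34%, 6.24% and 12.4% of all tested genes in these 4 comparisons. The ratio of Stat5a to Stat5b was less regular, from 0.69 in endosteal Gfra2-/- library B to 9.81 in endosteal WT library A.

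**Figure D3:**
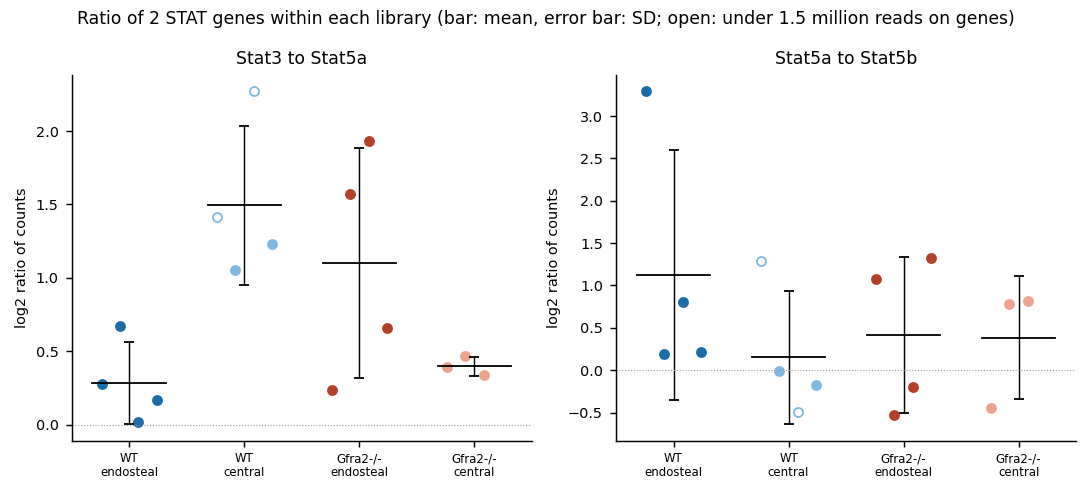
Ratio of counts of Stat3 to Stat5a (left) and of Stat5a to Stat5b (right) in each library, on a log2 axis, by group, with a bar for the mean and an error bar for the SD; open points mark the 2 libraries under 1500000 reads on genes. The left panel shows the 4 central WT libraries at ratios of 2.07 to 4.83, above all endosteal WT and central Gfra2-/- libraries.

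Of the inhibitors, Socs1 (ENSMUSG00000038037, chromosome 16, 10782240 to 10785536), which blocks Janus kinases directly, had 11.3 to 26.8 CPM in endosteal WT and 3.62 to 17.4 in central WT libraries, where central WT library A held 4 counts. In libraries labelled Gfra2-/- its range was 5.21 to 15.6 CPM in endosteal and 2.95 to 26.1 in central HSCs. The largest of its fold changes between 2 groups, endosteal against central WT, was 1.09 on the log2 scale with a standard error of 0.96, and the groups overlapped in each comparison. Socs2 (ENSMUSG00000020027, chromosome 10, 95385362 to 95417180), a Stat5 target that restrains cytokine and growth hormone signalling, was the inhibitor with the steadiest level: it ranged from 43.5 to 139 CPM and its log2 fold changes from -0.60 to 0.11. In each comparison of 2 groups the standard error of Socs2 was 0.38 or more.

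Socs3 (ENSMUSG00000053113, chromosome 11, 117966079 to 117970047), the inhibitor that binds gp130, was near 0 in most libraries and clearly present in 3. It had 324 counts (26.5 CPM) in endosteal WT library D, and 288 and 141 counts (19.5 and 16.3 CPM) in endosteal libraries A and C labelled Gfra2-/-. Of the other libraries 9 had 0 counts and 3 had 1 to 4. A count of 0 allows up to 3 counts, which is 0.151 to 4.02 CPM in these libraries and least informative in the shallow central WT ones. The 3 libraries with more than 4 counts were all endosteal and came from both genotypes. The filter on low counts removed Socs3 from the 4 comparisons of 2 groups. Over all libraries the fitted log2 fold change in endosteal against central HSCs was 5.72 (standard error 2.09, unadjusted p = 0.0134, FDR = 0.420 from edgeR), a value that depends on the prior count and on those 3 libraries. Without the libraries with little spike-in RNA, endosteal WT D among them, it was 2.84. Il6st had 13.7, 109 and 39.2 CPM in these 3 libraries, which were the lowest of all libraries, the highest of the endosteal libraries labelled Gfra2-/- and the lowest of them.

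Pim1 (ENSMUSG00000024014, chromosome 17, 29490753 to 29496112), the target, had the smallest p of the members between the genotypes, in central HSCs and over both compartments. From A to D, the endosteal WT libraries had 69.0, 35.3, 42.7 and 29.8 CPM and the central WT ones 109.5, 94.5, 153 and 62.0. In libraries labelled Gfra2-/- it had 20.2, 42.1, 27.1 and 4.38 CPM in endosteal and 30.4, 39.3 and 34.8 in central HSCs. Every central library labelled Gfra2-/- lay below every central WT library, while the groups overlapped in the other 3 comparisons of 2 groups. The log2 fold change of the genotypes in central HSCs was -1.61 (standard error 0.58, unadjusted p = 0.0164, FDR = 0.443 from edgeR), and the exact two-sided permutation test of Pim1 gave 0.0571, again the smallest possible. On the same scale it differed by -1.72 in the libraries with more spike-in RNA and by -0.82 in the pair with little. DESeq2, the tool of the study's methods, gave -1.72 with an adjusted p of 0.0596 and so called Pim1 at this threshold. It called 359 of 11473 genes in this comparison, against 6 of 11772 with edgeR.

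Pim1 was also lower in endosteal than in central WT HSCs by value, with a log2 fold change of -1.26 (standard error 0.54, unadjusted p = 0.0358, FDR = 0.594 from edgeR), or -1.29 and -1.03 within the spike-in sets. In endosteal HSCs the genotypes differed by -0.91 (standard error 0.70). Over both compartments the genotype difference was -1.22 (standard error 0.44, unadjusted p = 0.0126, FDR = 0.249 from edgeR), and DESeq2 called it at -1.27 with an adjusted p of 0.0517. In that comparison DESeq2 called 860 of 14676 genes, against 124 of 15416 with edgeR. Over both genotypes the compartment difference of Pim1 was -0.93 (standard error 0.43, unadjusted p = 0.0441, FDR = 0.560 from edgeR).

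The level of Pim1 moved with the depth of the libraries. The 5 shallowest libraries, with 826487 to 4416648 reads on genes, were the 4 central WT libraries and endosteal WT library A, and they held the 5 highest values of Pim1, from 62.0 CPM upward, against at most 42.7 CPM in the other 10. For Stat3 4 and for Il6st 3 of the 5 shallowest were among the 5 highest. With all libraries thinned to 826487 reads, the central genotype difference was -1.35 for Pim1, -1.02 for Stat3 and -1.64 for Il6st, and without the 2 libraries under 1500000 reads it was -1.21 for Pim1. No central WT library reached the depth of any central library labelled Gfra2-/-, so depth and genotype cannot be told apart in that comparison. The WT compartments did not overlap in depth either, with 826487 to 3367289 reads in central and 4416648 to 14003634 in endosteal libraries. Depth and compartment can therefore not be told apart between them, for levels and for ratios. The 8 granulocyte and monocyte markers summed to 540 to 2632 CPM in central WT, 566 to 1632 in central Gfra2-/-, 541 to 996 in endosteal WT and 477 to 699.7 in endosteal Gfra2-/- libraries. The markers differed among themselves: Prtn3 had 67.7 to 418 CPM over all libraries. Mpo reached at most 7.89, Elane at most 0.128 and Ctsg at most 0.273 CPM in any library. Single libraries stood out within a group: S100a9 had 796 CPM in central WT library D, against a group median of 3.72, and Lyz2 reached 2438 CPM in 1 central WT library, against a median of 481. The part of these markers in the result was not tested. Pim1 shares 488 exonic bases with the antisense gene Gm26885, whose reads cannot be separated without strand.

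**Figure D4:**
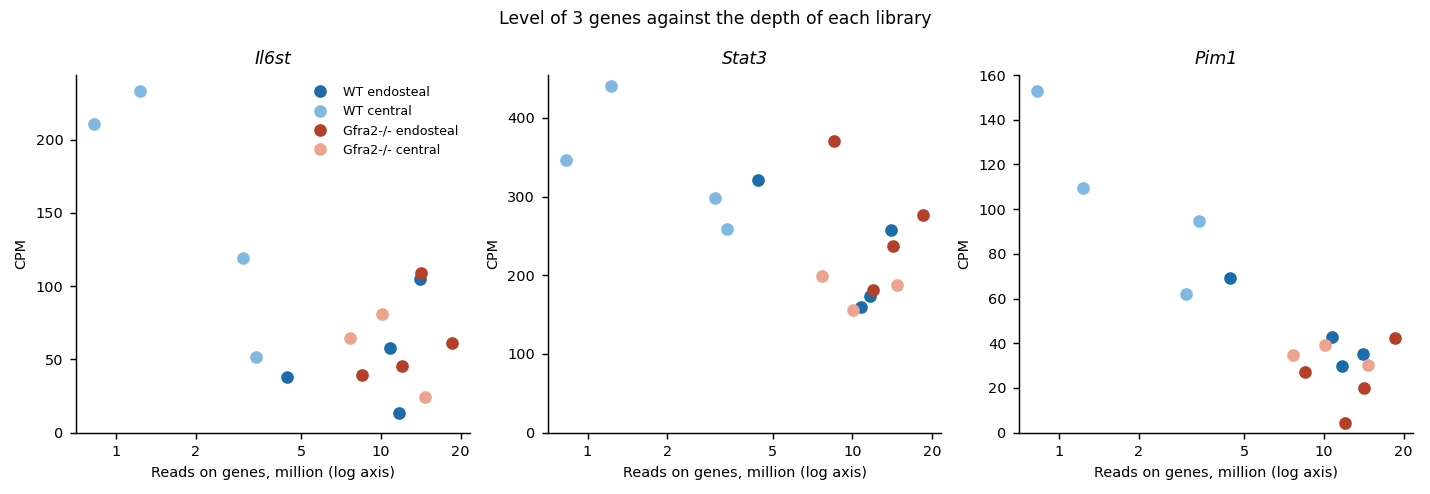
CPM of Il6st, Stat3 and Pim1 in each of 15 libraries against the number of reads counted on its genes (log axis), coloured by group. The 4 central WT libraries lie at the left, at 826487 to 3367289 reads, and for Pim1 the 5 shallowest libraries are the 5 highest.

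Counted together, 2 of 9 tested members had an unadjusted p under 0.05 in endosteal against central WT HSCs (Il6st and Pim1), where 7.89% of all genes did. For the compartments in libraries labelled Gfra2-/- it was 0 of 9 members against 4.79%, and for the genotypes in endosteal HSCs 0 of 9 against 6.69%. In central HSCs 3 of 9 members (Il6st, Stat3 and Pim1, each lower in libraries labelled Gfra2-/-) were set against 8.73% of all genes. Over all libraries, 1 of 10 members reached this mark for the interaction (Stat3, against 6.97%), 2 for the compartments (Pim1 and Socs3, against 8.71%) and 2 for the genotypes (Pim1 and Jak2, against 11.9%). These counts depended on single libraries. For the WT compartments the count was 0 without endosteal WT library C or D, without central WT library A or C, without both of these and without the libraries with little spike-in RNA. For the central genotypes it was 1 without central Gfra2-/- library A and 0 without the 2 shallowest libraries, and both counts were 0 with spike-in size factors. These comparisons share libraries, and the central WT group enters each comparison in which Il6st, Stat3 or Pim1 stood out. Groups did not overlap for 0 of 9 members in WT endosteal against central HSCs (6.36% of all genes), 0 in the compartments labelled Gfra2-/- (7.34%), 0 for the genotypes in endosteal HSCs (6.24%) and 2 in central HSCs (12.4%). The median log2 fold change of the members was -0.23, -0.13, -0.22 and -0.25 in these 4 comparisons, against 0.03 over all tested genes in each.

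**Figure D5:**
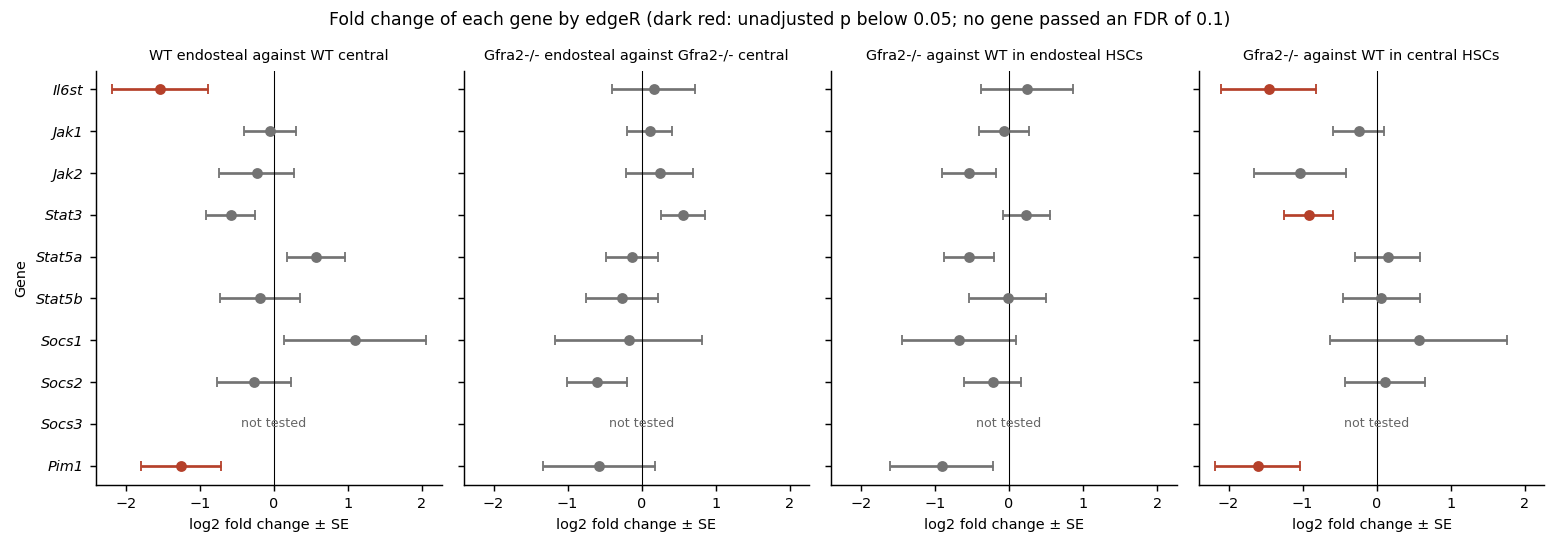
Log2 fold change of each gene with its standard error from edgeR in the 4 comparisons of 2 groups; dark red marks an unadjusted p under 0.05, and Socs3 was not tested. Il6st and Pim1 are marked in endosteal against central WT HSCs, at -1.54 and -1.26, and Il6st, Stat3 and Pim1 in central Gfra2-/- against WT HSCs, at -1.46, -0.92 and -1.61; no gene passed an FDR of 0.1.

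The wider pathway was followed with 61 further genes: ligands, receptors, kinases and STATs, inhibitors and targets. Between 46 and 50 of them could be tested in the 7 comparisons, and 0 passed an FDR of 0.1 with edgeR in any. Unadjusted p-values under 0.05 were found for 2 of 47, 4 of 48, 4 of 46 and 3 of 48 genes in the 4 comparisons of 2 groups, in the order above, beside 7.89%, 4.79%, 6.69% and 8.73% of all genes. Over all libraries they were found for 0, 5 and 10 of 50 genes, beside 6.97%, 8.71% and 11.9% of all genes. Of the 12 ligand genes, Thpo, Epo, Il3 and Csf2 were listed at 0 in each library, and Il6, Il11, Lif, Cntf and Csf3 stayed at or under 5.996 CPM. Osm, which encodes oncostatin M, reached 132 CPM in endosteal WT library A and had a median of 12.9 CPM in that group. Clcf1 had 36.1 to 116 CPM in central libraries labelled Gfra2-/- and at most 53.1 CPM elsewhere, and Ctf1 had a median of 17.3 CPM in both endosteal groups. Clcf1 and Ctf1 encode further cytokines that signal through gp130. Of the receptor chains that pair with gp130, Lifr and Osmr had a median of 0 in all 4 groups, Il6ra medians of 3.63 to 29.2 CPM and Il11ra1 medians of 79.1 to 165 CPM.

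Among the inhibitors, Ptpn6, the phosphatase SHP-1, and Sh2b3, the adaptor LNK that dampens cytokine signalling, had the smallest p-values between the genotypes over both compartments. Their log2 fold changes were 0.89 (standard error 0.28, FDR = 0.185 from edgeR) and 1.23 (standard error 0.39, FDR = 0.189 from edgeR), both toward higher values in libraries labelled Gfra2-/-. Sh2b3 had 105 to 197 CPM in endosteal and 53.9 to 70.2 in central libraries labelled Gfra2-/-, against 11.2 to 84.4 and 21.2 to 42.5 in the WT libraries. In endosteal HSCs the smallest p-values were those of Myc (log2 fold change 0.84, FDR = 0.696 from edgeR), a STAT3 target, and of Csf2rb, the common chain of the IL-3 and GM-CSF receptors (-2.25, FDR = 0.728 from edgeR). Stat4 was the gene with the smallest p in the WT compartments, at -1.19 (FDR = 0.595 from edgeR). Elsewhere Csf2rb2, Clcf1, Pias2, Ccnd2 and Bcl6 were named by the same rule, with FDR values of 0.395 to 0.999 from edgeR.

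Across the 15 libraries, the pair of members with the highest correlation of log2(CPM + 1) was Stat3 and Pim1 (Pearson r = 0.55). The lowest were the paralogues Stat5a and Stat5b and, level with them, Il6st and Socs3 (-0.37 each). By Spearman rank correlation the highest pair was Jak1 and Stat5a (0.57) and the lowest Socs3 and Pim1 (-0.50), with Stat5a and Stat5b at -0.24. These are descriptions: the libraries share groups and differ in depth. The genes with patterns most like Il6st, of 15415 genes, were Taz (r = 0.832), Snrnp70 (0.827) and Hps3 (0.827). For Jak2 they were Vma21 (r = 0.825), Lsm7 (0.802) and Homer1 (0.777), and for Socs2 Ankrd6 (r = 0.814), Gtf2h5 (0.803) and Tiam2 (0.791).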

How the data were processed

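Pools of HSCs were processed by Smart-seq2, which amplifies polyadenylated RNA by PCR without molecular identifiers, so depth covers counting error only. The authors aligned reads to GRCm38 (GSNAP and HTSeq 0.5.3p3 per the submitters' processing notes) and deposited raw read counts per gene, made without regard to strand and not normalized. Spike-in and summary rows were left out of library sizes and tests. Columns were matched to groups through the study's sample sheets, and 1 column of per-sample values was not mapped and was not used. Reads on genes ranged from 826487 to 18550008 per library, and the spike-in share was under 0.5% in 4 libraries, 1 in each group.

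Counts were tested with edgeR 4.0.16 (R 4.3.3): filterByExpr, TMM, the quasi-likelihood test and Benjamini-Hochberg adjustment at an FDR of 0.1. Only the groups compared entered, except for the interaction and the differences over both genotypes or compartments, fitted on all 15 libraries. For single values, log2(CPM + 1) was compared with two-sided exact permutation tests (scipy 1.17.1), whose smallest p is 0.0286 for 4 libraries against 4 and 0.0571 for 4 against 3. Members with an unadjusted edgeR p under 0.05 or groups that did not overlap are described in full and others by their range, and 2 genes of the pathway list with the smallest p are named per comparison, except 1 gene that is not reported here. The members and lists were chosen with earlier results of these data known. The scripts were tested on simulated data. Alternatives were DESeq2 1.42.0, DESeq2 or spike-in size factors, no filter, thinned counts, 1 fit of all groups, a pseudocount of 0.5, an FDR of 0.05, fits without doubted libraries or without each library in turn and, chosen after seeing the data, a term for the set of libraries with a low spike-in share.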

Additional observations from a re-analysis of the deposited data

Results flagged for a closer look

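Of the 30 sets of 4 libraries formed by 10 genes and 3 groups, 3 held a library far from the others by Dixon's criterion. In sets of normally distributed values, chance meets this criterion in about 1 of 20. That rate does not apply to sets made mostly of 0 counts, such as those of Socs3 below. Stat5a reached 264 CPM in endosteal WT library A, against at most 161 CPM in the other endosteal WT libraries. Socs3 reached 26.5 CPM in endosteal WT library D, where the others of that group had 0 to 2 counts. Socs3 also stood apart in central WT library B at 0.311 CPM, which is 1 count against 0 in the others of that group.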

How the results depend on the processing

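No paired analysis was possible because the columns of the deposited table name no replicates. The number of members past an FDR of 0.1 was 0 in all 7 comparisons with edgeR and stayed at 0 under 143 alternatives, those without single libraries included, and changed under 2. These were DESeq2's test of the genotypes in central HSCs and over both compartments, each with 1 member called, Pim1. With 0 members past an FDR of 0.1, the stricter FDR of 0.05 could only give 0. The fits without single libraries rested on fewer libraries. DESeq2 also called more of all genes, 200, 147, 132, 359, 172, 334 and 860 in the 7 comparisons, against 0, 0, 0, 6, 0, 4 and 124 with edgeR, and edgeR without the filter called 58, 0, 0, 134, 0, 30 and 66. The cause was not tested. The number of members at an unadjusted p under 0.05 was less stable, at 0 to 2 between the WT compartments and 0 to 3 between the central genotypes. A term for the spike-in set, chosen after seeing the data, left 0 members past the threshold, with a central fold change of -1.52 for Pim1 and -0.92 for Stat3. No fold change of a named member changed sign relative to the median of all genes, which spike-in size factors moved to 1.58 between the WT compartments, 1.75 between the central genotypes and -2.18 in the interaction. At 1.75, the central shift was larger in size than the main fold changes of Pim1 (-1.61) and Stat3 (-0.92). Values relative to the median leave this shift out, so the kept sign does not test the scaling. Spike-in fold changes without this step are not given. With spike-in scaling taken relative to that median, the fold change of Pim1 in central HSCs ranged from -1.81 to -1.17 over its alternatives (adjusted p from 0.0596 to 0.836) and that of Stat3 from -1.07 to -0.67 (0.167 to 0.781). Il6st ranged from -2.08 to -0.68 between the WT compartments and from -1.81 to -0.63 between the central genotypes. Without endosteal WT library D, or endosteal Gfra2-/- library A or C, Socs3 failed the filter and could not be fitted.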
